A study of Rattus norvegicus with 47 samples.

Results

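The expression of 40 named genes of the cell cycle was followed in the blood of rats through the first day after occlusion of the middle cerebral artery (MCA). The list held 18 replication genes, which copy the DNA or supply its building blocks, and 22 mitosis genes, which build the spindle, move the chromosomes and time their separation. A member was found where the gene symbol in the annotation of the array equalled its name, and where a gene had several probe sets the one with the highest mean signal over the 6 time points was taken. This gave 36 of the 40 genes, 15 for replication and 21 for mitosis, among 27596 probe sets, of which 21406 had a symbol. E2f2, Rrm1, Tk1 and Birc5 matched no symbol, and their expression was not analysed here. The promoters of Rrm1, Tk1 and Birc5 are among those counted below. The rule for members used no measured change.

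The animals were 8 male spontaneously hypertensive rats (SHR) of 16 weeks. A silicon-coated thread closed the MCA of each rat and was withdrawn between the 1 h and the 2 h sample, so the stroke was transient. A lateral vein of the tail was bled shortly before anaesthesia (0 h) and again 1, 2, 3 and 6 h after the artery was closed. At 24 h the rats were killed with an excess of anaesthetic and blood came from the heart. The site of the draw and this time point therefore cannot be told apart. Each time point had arrays of all 8 rats, apart from 6 h, where 1 rat was missing and 7 remained, for 47 arrays in all. There was no sham-operated group, and time after occlusion cannot be told apart from time after anaesthesia, surgery, reperfusion and repeated bleeding. RNA came from the whole blood cell pellet. For any gene, fewer cells of a type and less RNA per cell cannot be told apart.

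In a dividing cell, E2F transcription factors switch on the genes for DNA replication as the cell leaves G1. The mitosis genes follow later, largely through promoter elements called CHR, to which the DREAM complex binds in resting cells and the B-Myb and FoxM1 factors in cycling ones. Most white cells in blood have left the cycle, while activated lymphocytes and young cells recently released from the marrow can still carry transcripts of cycle genes. Reticulocytes, the youngest red cells, have lost their nucleus and carry RNA made earlier in the marrow.

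Promoters of the leading members are shown because the 2 groups are known for different control elements. RefSeq promoters (rat build GRCr8, 250 bases before to 50 bases after the start of the gene) were at hand for 32 of the 40 genes, 14 for replication and 18 for mitosis. Among the 10 members described in full below, those whose promoter held the element of their own group are printed, from 150 bases before to 25 bases after the start, 5′ to 3′ on the strand of the gene. Capitals mark the E2F motif (TTTGGCGC, TTTCCCGC, TTTGCCGC or TTTCGCGC), the CHR motif (TTTGAA) and the CCAAT box, each searched on both strands.
Mcm3 (chr9:30733722-30733896, minus strand): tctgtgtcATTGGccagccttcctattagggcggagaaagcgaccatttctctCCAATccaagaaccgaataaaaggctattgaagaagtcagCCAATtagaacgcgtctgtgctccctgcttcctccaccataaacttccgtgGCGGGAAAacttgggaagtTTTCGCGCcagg
Mcm6 (chr13:42404328-42404502, minus strand): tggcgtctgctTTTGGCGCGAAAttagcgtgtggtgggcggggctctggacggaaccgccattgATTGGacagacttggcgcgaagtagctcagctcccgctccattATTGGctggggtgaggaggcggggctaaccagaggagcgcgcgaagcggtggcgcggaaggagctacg
Mcm7 (chr12:22163154-22163328, minus strand): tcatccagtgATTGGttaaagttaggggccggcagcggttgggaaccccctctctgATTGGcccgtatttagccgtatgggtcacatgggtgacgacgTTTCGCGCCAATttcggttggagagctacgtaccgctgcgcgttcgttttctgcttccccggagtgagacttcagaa
Kif23 (chr8:71320560-71320734, minus strand): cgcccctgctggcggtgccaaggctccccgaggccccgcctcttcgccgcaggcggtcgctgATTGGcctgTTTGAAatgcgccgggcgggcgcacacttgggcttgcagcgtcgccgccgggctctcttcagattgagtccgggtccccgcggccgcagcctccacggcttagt
Mki67 (chr1:199952569-199952743, minus strand): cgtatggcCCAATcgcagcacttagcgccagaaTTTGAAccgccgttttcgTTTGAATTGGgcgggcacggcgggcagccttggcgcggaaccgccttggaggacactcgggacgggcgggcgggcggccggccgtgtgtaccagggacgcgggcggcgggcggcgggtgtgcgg

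The E2F letters stood in 9 of the 14 replication promoters and in 1 of the 18 mitosis promoters, that of Cdk1. They stood in 2.25% of the 27457 promoters of the table. The CHR letters stood in 13 of the 18 mitosis promoters, in 2 of the 14 replication promoters (Mcm2 and Ung) and in 18.1% of all promoters. A CCAAT box stood in 9 replication and 14 mitosis promoters, against 37.7% of all promoters. These counts include the promoters of Rrm1, Tk1 and Birc5, whose expression was not measured. Birc5 held the CHR letters and a CCAAT box, Rrm1 held a CCAAT box, and Tk1 held no match. In Mcm6 the 2 E2F matches overlap each other, in Mcm7 the E2F match of the printed stretch overlaps a CCAAT box, and in Mki67 the second CHR match overlaps one. The promoter windows of Pcna, Aurka and Bub1 held neither the E2F nor the CHR letters, and Rrm2 and Tpx2 were not in the table. A match is a run of letters and was not tested as a binding site.

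Signal was the log2 RMA value of a probe set, and a change was the mean at one time point minus the mean at another, so a change of 1 is a doubling. The values per time point were the deposited means and SDs over the arrays of that time. Where a member is given in full, its 6 means ± SD are listed in the order 0, 1, 2, 3, 6 and 24 h, with n = 8 for each and n = 7 for 6 h. The limma moderated test was computed from these means, SDs and array numbers, with Benjamini-Hochberg adjustment over all 27596 probe sets and a call at an adjusted p below 0.05. The single arrays were not analysed here, so the test took arrays as independent although each rat was sampled repeatedly. All changes against 0 h share the 0 h samples. Over the 6 time points the F-test called 25 of the 36 members, 11 of 15 for replication and 14 of 21 for mitosis. It called 55.5% of all probe sets, so the members' 69.4% was read against a blood transcriptome in which change was common. Of the members, 10 of the 15 replication genes and 15 of the 21 mitosis genes had a mean signal above the median of all probe sets. The part of signal level in the members' share of calls, here and at single time points, was not tested.

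Replication genes were mostly lower after the occlusion, and 1 of them, Rrm2, rose more than any other member. Of the 15, 9 had their highest mean at 0 h, and 9 were below their 0 h mean at every later time point, as were 23.8% of all probe sets. At 1 h, 6 were called lower and 2 higher, where 15.4% of all probe sets were lower and 21.7% higher. At 2 h, 9 were lower and 1 higher (18.6% and 21.7% of all probe sets). At 3 h, 8 were lower and 2 higher (19.2% and 27.3%). At 6 h, 7 were lower and 1 higher (19.3% and 22.5%), and at 24 h, 6 were lower and 1 higher (13.9% and 17.4%). Their median changes at 1, 2, 3, 6 and 24 h were -0.08, -0.23, -0.25, -0.22 and -0.20, whereas the median of all probe sets stayed between 0.04 and 0.07.

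**Figure D1:**
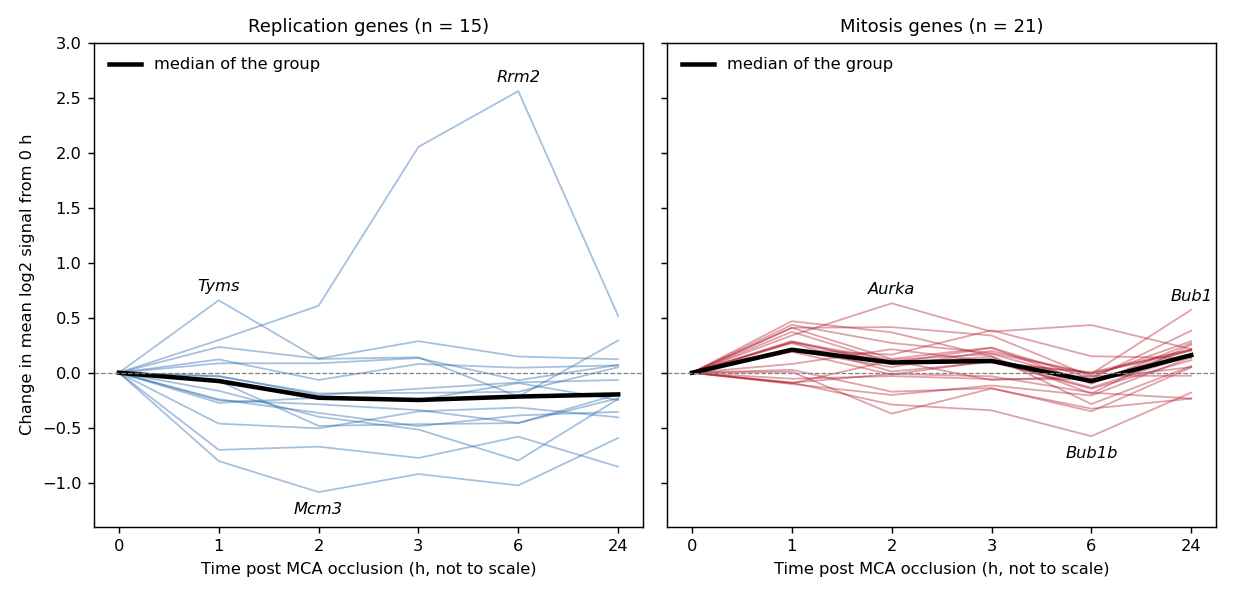
Change in mean log2 signal from 0 h (y axis) at 6 time points (x axis, equally spaced) for the 15 replication genes (left, blue) and the 21 mitosis genes (right, red), 1 line per gene, with the median of the group in black. Most replication genes lie below 0 while Rrm2 reaches 2.56 at 6 h, and the median of the mitosis genes is at 0.21 at 1 h and at -0.08 at 6 h.

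The minichromosome maintenance genes Mcm2 to Mcm7 encode the 6 subunits of the helicase that unwinds DNA at the origin. Mcm3 (rn5 chr9:25770687-25788344) had mean log2 signals of 8.34 ± 0.12, 7.54 ± 0.14, 7.26 ± 0.13, 7.42 ± 0.20, 7.32 ± 0.17 and 7.75 ± 0.22. Every later mean of Mcm3 lay below the 0 h mean by more than the SDs. Its largest change was -1.08 at 2 h (95% confidence interval -1.25 to -0.92, adjusted p = 3.81e-15, limma moderated test), a 2.12-fold fall, and at 24 h its change was still -0.59 (adjusted p = 4.11e-07).

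Mcm7 (rn5 chr12:21364250-21372100) moved down in smaller steps. Its means were 7.05 ± 0.21, 6.89 ± 0.17, 6.65 ± 0.24, 6.54 ± 0.30, 6.26 ± 0.19 and 6.82 ± 0.24. The 6 h change was -0.80 (-1.03 to -0.57, adjusted p = 1.61e-07, limma), and the 24 h change of -0.24 did not pass the test (adjusted p = 0.0968). Mcm6 (rn5 chr13:50127505-50152671) was lower from 2 h on, and its change of -0.08 at 1 h did not pass the test. Its means were 7.36 ± 0.19, 7.28 ± 0.22, 6.88 ± 0.19, 6.89 ± 0.16, 6.90 ± 0.17 and 7.13 ± 0.09. The change at 2 h was -0.48 (-0.66 to -0.31, adjusted p = 1.17e-05, limma).

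Mcm4 was lower at all 5 later time points, with its largest change of -0.51 at 2 h. Mcm2 was lower at 1, 2, 3 and 6 h, with its largest change of -0.46 at 6 h. Mcm5, the other subunit gene, gave less: its F-test missed the threshold (adjusted p = 0.183, limma), and only its change of -0.20 at 2 h was called (adjusted p = 0.0369). With quantile normalized means Mcm5 was also called at 3 h (adjusted p = 0.0395), and with the variance of the 2 time points alone its 2 h call was lost (adjusted p = 0.0533). The difference between Mcm5 and the other subunit genes was not tested.

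Pcna encodes the sliding clamp that holds the polymerase on DNA. At rn5 chr3:131376231-131380192, its means were 8.71 ± 0.28, 8.01 ± 0.22, 8.04 ± 0.19, 7.94 ± 0.31, 8.13 ± 0.19 and 7.86 ± 0.18. All 5 later means lay below the 0 h mean by more than either SD. The largest change of Pcna was the last, -0.85 at 24 h (-1.08 to -0.63, adjusted p = 1.35e-07, limma), a time by which the means of Mcm3 and Mcm7 had risen again from those at 6 h. Cdk2, the kinase that starts S phase, was lower at all 5 later time points, by up to -0.49 at 3 h. Gmnn encodes geminin, which blocks renewed licensing of origins, and was lower at 1, 2, 3 and 24 h, by up to -0.27.

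Rrm2 encodes the small subunit of ribonucleotide reductase, which makes the deoxynucleotides for DNA, and it moved the other way. Its probe set (rn5 chr6:60756211-60761048) had means of 8.62 ± 0.27, 8.92 ± 0.21, 9.23 ± 0.29, 10.68 ± 0.29, 11.18 ± 0.23 and 9.14 ± 0.41. The 3 h and 6 h means stood above all the others by several SDs. The change was 2.05 at 3 h and 2.56 at 6 h (2.27 to 2.85, adjusted p = 1.26e-19, limma), a 5.90-fold rise. By 24 h it was 0.52 above 0 h (adjusted p = 0.00404). Its F-test p ranked 63rd among all probe sets, and the next member, Mcm3, ranked 467th.

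A second probe set named Rrm2, on chromosome 19, gave the same course, from 7.96 ± 0.20 at 0 h to 10.70 ± 0.22 at 6 h and 8.37 ± 0.43 at 24 h. RefSeq now places a gene called Rrm2l1 in that neighbourhood, and near-identical copies can share probes. The chromosome 19 probe set had the larger 6 h change, 2.74, and the smaller F-test p (limma, 8.11e-27 against 2.51e-24). Which of the copies the signal came from was not tested.

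Tyms, which encodes thymidylate synthase, was the other nucleotide gene found. It rose by 0.66 at 1 h (0.40 to 0.91, adjusted p = 6.86e-05, limma), fell by 0.53 from 1 to 2 h (adjusted p = 0.00373), and was called against 0 h at no other time, except at 24 h with quantile normalized means (0.38, adjusted p = 0.0228). Cdt1, which loads the helicase onto origins, was higher at 1 h by 0.23 and at 3 h by 0.29. Ccne1 (cyclin E1), E2f1 (an E2F transcription factor) and Ung (uracil-DNA glycosylase) passed neither the F-test nor any comparison with 0 h, and their changes lay between -0.19 and 0.13. With quantile normalized means Ccne1 was called lower at 2, 3 and 6 h, by up to -0.27 at 3 h (adjusted p = 0.0135, limma), and with centred means at 3 h (adjusted p = 0.0443). With quantile normalized means the 1 h calls of Mcm2, Cdk2 and Cdt1, the 2 h call of Gmnn and the 24 h call of Mcm6 were lost (limma adjusted p between 0.0534 and 0.0835).

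**Figure D2:**
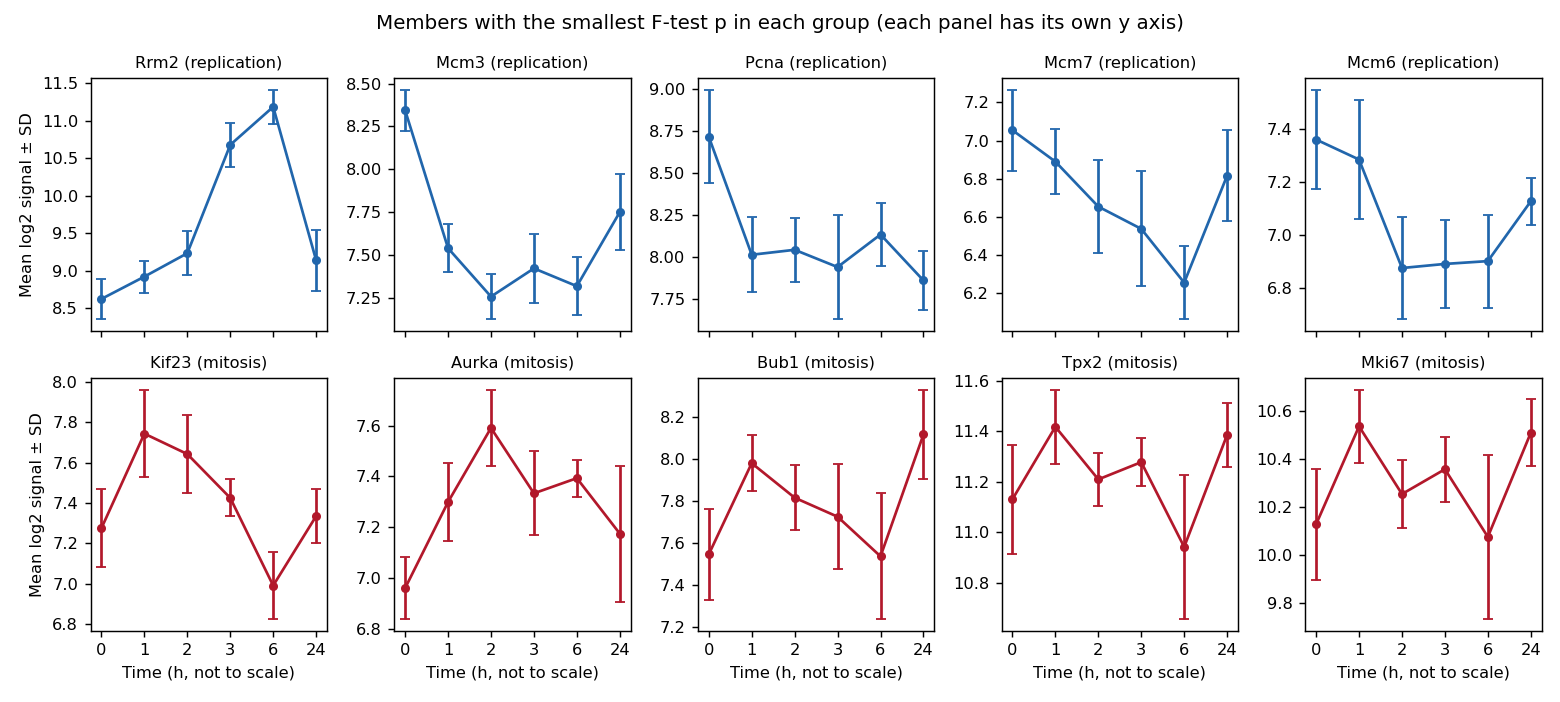
Mean log2 signal ± deposited SD (y axis, a separate scale in each panel) at 6 time points (x axis, equally spaced, n = 8 and 7 at 6 h) for the 5 members with the smallest F-test p among replication genes (top) and mitosis genes (bottom). Rrm2 peaks at 6 h, the other 4 replication genes are highest at 0 h, and Kif23, Bub1, Tpx2 and Mki67 have their lowest means at 6 h.

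The median of the mitosis genes was above that of 0 h at 1 h, below it at 6 h and above it again at 24 h, in steps that were small beside those of Rrm2 or Mcm3. At 1 h, 10 of the 21 were called higher and 0 lower, against 21.7% and 15.4% of all probe sets. At 6 h, 1 was higher and 4 were lower (22.5% and 19.3%), so the 19.0% lower were at the background and the 4.76% higher were below it. At 2 h the counts were 4 higher and 2 lower (21.7% and 18.6%), at 3 h 4 and 1 (27.3% and 19.2%) and at 24 h 4 and 1 (17.4% and 13.9%), shares that lay below the background or, for the 19.0% higher at 24 h, near it. That reading depended on the scaling: with quantile normalized means 7 were higher at 3 h and 6 at 24 h (33.3% and 28.6%, against 19.5% and 12.5% of all probe sets), while with centred means 3 and 2 were (14.3% and 9.52%, against 19.1% and 9.96%). Median changes at 1, 2, 3, 6 and 24 h were 0.21, 0.09, 0.11, -0.08 and 0.16. The lowest mean fell at 6 h in 15 of the 21 genes and the highest at 1 h in 9. The course up at 1 h, down from 3 to 6 h and up from 6 to 24 h was followed by 14 of the 21, and by 22.0% of all probe sets.

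**Figure D3:**
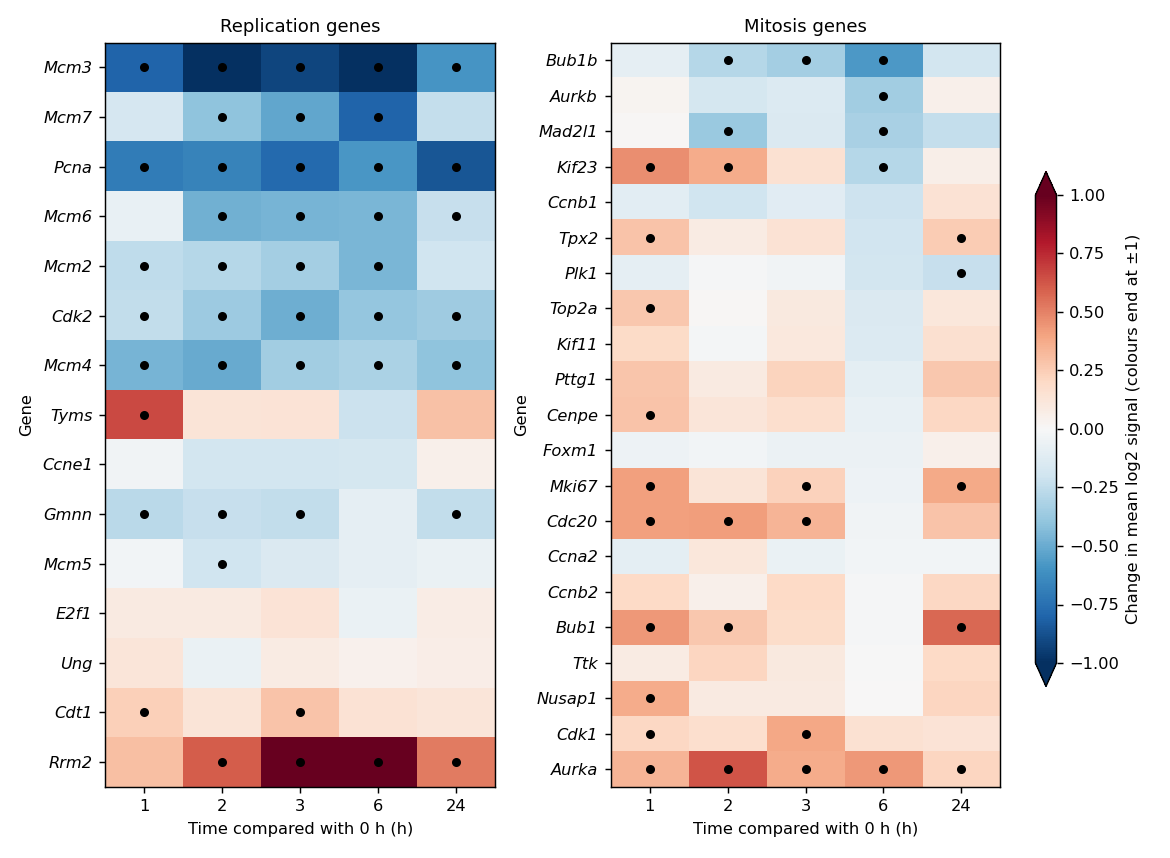
Change in mean log2 signal from 0 h (colour, red higher and blue lower, ending at -1 and 1) for each member (rows, ordered by the 6 h change) at the 5 later time points (columns), with a dot where the limma moderated test called the change. Dots on blue mark between 6 and 9 replication genes at each time, and dots on red mark 10 mitosis genes at 1 h.

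Among the motor and spindle genes, Kif23, a kinesin of the central spindle that cells need to divide, changed most clearly. Its probe set (rn5 chr8:66598838-66625616) had means of 7.28 ± 0.19, 7.74 ± 0.22, 7.64 ± 0.19, 7.43 ± 0.09, 6.99 ± 0.17 and 7.34 ± 0.13. The change was 0.47 at 1 h (0.30 to 0.64, adjusted p = 2.44e-05, limma) and 0.37 at 2 h (adjusted p = 0.000422). At 6 h it was -0.28 (-0.46 to -0.11, adjusted p = 0.0074). Kif23 was thus called higher first and lower later, as was Tpx2 with centred or quantile normalized means (-0.22 at 6 h with either, limma adjusted p = 0.0437 and 0.0424).

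Tpx2, which nucleates spindle microtubules and activates Aurora A, had means of 11.13 ± 0.22, 11.42 ± 0.15, 11.21 ± 0.11, 11.28 ± 0.09, 10.94 ± 0.29 and 11.39 ± 0.13 (rn5 chr3:154749229-154772964). Its change was 0.29 at 1 h (0.12 to 0.46, adjusted p = 0.00695, limma) and 0.26 at 24 h (the latter not called with centred means, adjusted p = 0.0551), and it rose by 0.44 from 6 to 24 h (adjusted p = 0.000134). Cenpe, the kinetochore motor, was higher by 0.28 at 1 h. Kif11, the motor that separates the spindle poles, passed the F-test (adjusted p = 0.036, limma) with no single change against 0 h past the threshold, though quantile normalized means called its 1 h change (0.26, adjusted p = 0.0365). Nusap1, a microtubule-bundling protein, was higher by 0.37 at 1 h but missed the F-test (adjusted p = 0.0555).

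The mitotic kinases and the spindle checkpoint did not move as one. Aurka, the kinase Aurora A of the spindle poles, was higher at all 5 later time points, with means of 6.96 ± 0.12, 7.30 ± 0.15, 7.59 ± 0.15, 7.33 ± 0.17, 7.39 ± 0.07 and 7.17 ± 0.27 (rn5 chr3:176439957-176455990). Its change was 0.63 at 2 h (0.47 to 0.80, adjusted p = 1.8e-08, limma), the largest of any mitosis gene, while the 24 h call was lost with centred means (adjusted p = 0.115). Aurkb, the kinase Aurora B of the chromosomal passenger complex, was called at 6 h alone, at -0.35 (-0.52 to -0.18, adjusted p = 0.000845).

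Bub1, a checkpoint kinase of the kinetochore, had means of 7.55 ± 0.22, 7.98 ± 0.14, 7.82 ± 0.15, 7.72 ± 0.25, 7.54 ± 0.30 and 8.12 ± 0.21 (rn5 chr3:126929307-126959536). It was higher by 0.44 at 1 h (0.22 to 0.65, adjusted p = 0.00107, limma). It was also higher by 0.27 at 2 h (adjusted p = 0.0351) and by 0.57 at 24 h (adjusted p = 4.41e-05). The 2 h call of Bub1 was lost with centred means (adjusted p = 0.0656). Its 6 h mean was 0.01 below that of 0 h. Bub1b, which encodes the checkpoint protein BubR1, ran the other way: it had changes of -0.29, -0.34 and -0.58 at 2, 3 and 6 h, each called (for the last, -0.82 to -0.33, adjusted p = 0.000132). The 2 h call of Bub1b was lost with no moderation (adjusted p = 0.0545), with quantile normalized means (adjusted p = 0.129) and without the 24 h samples (adjusted p = 0.0538). Mad2l1, the Mad2 checkpoint protein, had a change of -0.37 at 2 h and -0.33 at 6 h, and both calls were lost with quantile normalized means (-0.25, adjusted p = 0.118, and -0.20, adjusted p = 0.258, limma). Cdc20, the activator of the anaphase-promoting complex that the checkpoint holds back, was higher by 0.41, 0.41 and 0.34 at 1, 2 and 3 h.

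Mki67 encodes the proliferation antigen Ki-67. Its means were 10.13 ± 0.23, 10.53 ± 0.15, 10.25 ± 0.14, 10.36 ± 0.14, 10.07 ± 0.34 and 10.51 ± 0.14 (rn5 chr1:214926196-214952235). It was higher by 0.41 at 1 h (0.21 to 0.60, adjusted p = 0.000988, limma), by 0.38 at 24 h and by 0.23 at 3 h. The 3 h call of Mki67 was lost with centred means (adjusted p = 0.113). Top2a, the topoisomerase that disentangles sister chromosomes, was higher by 0.27 at 1 h, a call lost with centred means (adjusted p = 0.086, limma). Cdk1, the kinase that drives entry into mitosis, was higher by 0.21 at 1 h, which centred means did not call (adjusted p = 0.12), and by 0.39 at 3 h.

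The cyclin partners of Cdk1 gave less. Ccnb1 (cyclin B1) passed the F-test narrowly (adjusted p = 0.0477, limma), with a rise of 0.35 from 6 to 24 h. Ccna2 (cyclin A2) was called at 1 step, a rise of 0.21 from 1 to 2 h, and its F-test missed (adjusted p = 0.111). Ccnb2 (cyclin B2) passed no test, and both of its probe sets are annotated on chromosome 1, where RefSeq has a Ccnb2 pseudogene, while RefSeq puts Ccnb2 itself on chromosome 8, so its values are uncertain. Plk1, the Polo-like kinase, missed the F-test and was called at 24 h alone, at -0.23 (adjusted p = 0.0447). Foxm1, the transcription factor of the mitosis genes, Pttg1 (securin) and Ttk (the checkpoint kinase Mps1) passed no test, with changes against 0 h of at most 0.06, 0.27 and 0.21 in size. Quantile normalized means called Ccnb2 at 3 h (0.28, adjusted p = 0.043) and Pttg1 at 24 h (0.36, adjusted p = 0.0486), and the variance of the 2 time points alone called Ttk at 2 h (adjusted p = 0.0499, limma). The 24 h call of Plk1 was lost with no moderation (adjusted p = 0.0511) and with that variance (adjusted p = 0.0634).

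The spread between arrays was widest for the mitosis genes at 6 h. The median deposited SD of the 21 was 0.25 at 6 h and between 0.17 and 0.19 at the other time points, while that of all probe sets lay between 0.14 and 0.16. It was 0.45 for Bub1b, 0.44 for Pttg1 and 0.41 for Nusap1 at 6 h.

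**Figure D4:**
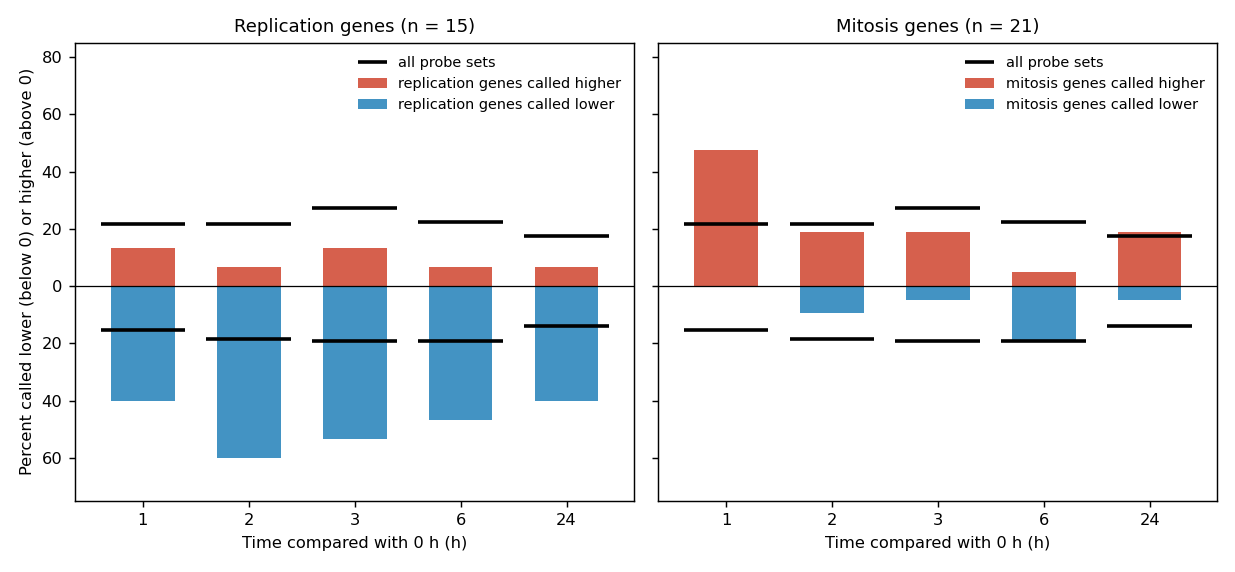
Percent of the 15 replication genes (left) and the 21 mitosis genes (right) called higher (red, above 0) or lower (blue, below 0) than at 0 h at each later time point (x axis), with black lines at the percent of all probe sets called in that direction. Replication genes called lower exceed the black line at all 5 times, and mitosis genes called higher exceed it clearly at 1 h only, at 47.6% against 21.7%.

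Between neighbouring time points, the clearest step for the mitosis genes was the last. From 6 to 24 h, 9 of the 21 rose and 0 fell, where 10.2% of all probe sets rose and 8.68% fell, and their median change was 0.28. Those 9 were Mki67, Ccnb1, Aurkb, Tpx2, Kif11, Kif23, Cenpe, Bub1 and Bub1b, with rises between 0.28 and 0.58. Replication genes at that step gave 4 rises (Mcm2, Mcm3, Mcm7 and Tyms, by 0.26 to 0.56) and 1 fall: Rrm2 fell by 2.04. From 3 to 6 h, 2 mitosis genes fell, Kif23 by 0.43 and Tpx2 by 0.34, and 0 rose, while 1 replication gene rose (Rrm2, by 0.51) and 0 fell. Over that step 2.34% of all probe sets rose and 2.44% fell, and 19 of the 21 mitosis genes had a negative change.

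From 1 to 2 h, the step that contains the reperfusion, 3 replication genes fell (Mcm3, Mcm6 and Tyms) and 0 rose. Among the mitosis genes 2 rose (Aurka by 0.29 and Ccna2) and Mad2l1 fell by 0.38. Of all probe sets 4.66% rose and 4.11% fell at this step. From 2 to 3 h, 1 member was called: Rrm2 rose by 1.44 (adjusted p = 7.76e-10, limma), where 1.9% of all probe sets rose and 1.62% fell. For the other 35 members no call was made at that step at an adjusted p below 0.05, while 5 of them had an unadjusted limma p below 0.05. Where a count above is 0, the number with an unadjusted limma p below 0.05 in that direction was 0 for mitosis genes lower at 1 h, 1 for mitosis genes falling from 6 to 24 h and 0 for those rising from 3 to 6 h. It was 4 for replication genes falling from 3 to 6 h and 1 for those rising from 1 to 2 h.

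Other genes of the same pathway were described from 3 further lists. Of 48 other replication genes, 28 passed the F-test, or 58.3% against 55.5% of all probe sets. At 1 h 10 of them were higher and 8 lower (21.7% and 15.4% of all probe sets), at 6 h 5 and 20 (22.5% and 19.3%), and at 24 h 3 and 11 (17.4% and 13.9%). Their medians in the order of the 5 later times were -0.05, -0.12, -0.08, -0.18 and 0.01. Dck, which encodes deoxycytidine kinase of the nucleotide salvage pathway, was higher by 1.28 at 6 h, and the replication initiation factor Mcm10 by 1.02 at 3 h. Prim1, a primase subunit, had a change of -1.03 at 6 h. Of 47 other mitosis genes, 33 passed the F-test, or 70.2% against 55.5%. At 1 h 21 were higher and 2 lower (21.7% and 15.4%), while at 6 h 3 were higher and 14 lower. The largest changes in that list were those of Lmnb1 (lamin B1), 0.91 at 3 h, Tacc3, a spindle protein, 0.86 at 6 h, and Smc4, a condensin subunit, -0.83 at 3 h. The medians of these other mitosis genes at 1, 2, 3, 6 and 24 h were 0.18, 0.03, 0.08, -0.07 and 0.08.

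Among 27 inhibitors of the cycle and regulators of G1, 22 passed the F-test, or 81.5% against 55.5%, with 4 higher and 12 lower at 3 h (27.3% and 19.2% of all probe sets). The median of the list was -0.17 at 3 h. Gadd45a, a stress-induced growth arrest gene, was higher by 1.78 at 3 h. Cdkn1a, which encodes the Cdk inhibitor p21, was higher by 1.44 at 3 h. Rbl1, a retinoblastoma-like repressor of E2F targets, was chosen after its values were seen as an example of the 12 called lower at 3 h, not for the size of its change, which was -0.68.

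Defining markers of blood cells were measured in the samples: at 0 h the mean log2 signal was 13.39 for the erythroid gene Alas2, 12.21 for the neutrophil gene Mmp8, 11.05 for the B cell gene Bank1 and 10.83 for the T cell gene Cd3g. Many of these markers also changed. All 10 neutrophil markers were higher at each of the 5 later time points, with medians of 0.90, 1.47, 1.33, 1.65 and 0.80 in the order of the times. Mmp8 and Cxcr2 had the highest signal in that list. The log2 of the summed signal of the list went from 13.81 at 0 h to 15.46 at 6 h and 14.59 at 24 h. The 10 B cell markers, led by Bank1 and Cd79b, had medians of -1.48, -2.00, -2.05, -1.62 and -0.44, and 9 or 10 of them were called lower at each time from 1 to 6 h and 7 at 24 h. The log2 summed signal of the B cell list was 13.27 at 0 h, then 11.46 at 3 h and 12.77 by 24 h. The 10 T cell markers, led by Cd3g and Cd3e, had medians of -0.45, -0.85, -0.97, -1.14 and -0.72, with 9 called lower at 1 h and all 10 afterwards. At the 5 later times between 13.9% and 19.3% of all probe sets were called lower and between 17.4% and 27.3% higher. NK and cytotoxic markers (10, led by Gzmb and Klrk1) had medians of -0.16, -0.33, -0.71, -0.69 and -0.70.

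Beside the fall of the B and T cell markers, the median of the replication genes reached -0.25, and the largest negative changes among them were -1.08 for Mcm3, -0.85 for Pcna and -0.80 for Mcm7. The median of the B cell markers was lowest at 3 h and that of the T cell markers at 6 h. Of the 15 replication genes, Rrm2 and Cdt1 had their lowest mean before the occlusion, Gmnn at 1 h and Pcna at 24 h. Of the remaining genes 6 were lowest at 2 h, 1 (Cdk2) at 3 h and 4 at 6 h. The part of these cells in the change of the replication genes, Rrm2 included, was not tested.

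The medians of the erythroid and reticulocyte markers and of the mitosis genes had the same sign at each time, a likeness that was not tested. For the erythroid markers the medians at 1, 2, 3, 6 and 24 h were 0.25, 0.09, 0.10, -0.12 and 0.29, beside 0.21, 0.09, 0.11, -0.08 and 0.16 for the mitosis genes. At 24 h 7 of the 10 erythroid markers and 4 of the 21 mitosis genes (19.0%) were called higher, where 17.4% of all probe sets were. Aurka, Bub1b, Foxm1, Ccna2, Ccnb1, Cdk1 and Plk1 did not follow the course up at 1 h, down from 3 to 6 h and up from 6 to 24 h. All 10 erythroid markers were above 0 h at 1 h (5 called higher, against 21.7% of all probe sets) and all 10 were below it at 6 h (3 called lower, against 19.3%). All 10 were called higher at 24 h than at 6 h, as were 10.2% of all probe sets. Alas2 and Hemgn had the highest signal in that list, and its log2 summed signal was 15.26, 15.40, 15.14 and 15.44 at 0, 1, 6 and 24 h. Its median SD was also widest at 6 h, at 0.28. The 8 platelet markers, led by Clec1b and Pf4, had medians of 0.29, 0.14, 0.09, 0.00 and 0.26. Like those of the erythroid markers, the platelet medians were thus above 0 at 1, 2, 3 and 24 h. At 6 h 4 platelet markers were above their 0 h mean and 4 were below it. All 8 had a higher mean at 24 h than at 6 h, with a median change of 0.27, and 3 were called. The part of red cell precursors or platelets in the course of the mitosis genes was not tested.

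The remaining lists had other medians. The 10 immature granulocyte markers, led by Ngp and Lcn2, had medians of 0.20, 0.19, 0.16, 0.11 and 0.04. Of these markers 7, 6, 5, 4 and 0 were called higher, where 21.7%, 21.7%, 27.3%, 22.5% and 17.4% of all probe sets were. Their log2 summed signal moved more than the median: it was 11.51, 12.70, 12.39 and 11.05 at 0, 2, 6 and 24 h. The largest change of a single marker was 2.81 at 6 h. The 10 monocyte markers, led by Lyz2 and Ccr2, had medians of -0.50, -0.02, 0.22, 0.15 and -0.29. They went both ways: at 3 h 5 were called higher and 4 lower (27.3% and 19.2% of all probe sets). Their changes at 3 h lay between -1.48 and 2.37, and the counts were the same at 2 and 6 h. The 9 plasma cell markers found, led by Xbp1 and Mzb1, had medians of -0.04, -0.03, -0.08, -0.18 and -0.27.

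**Figure D5:**
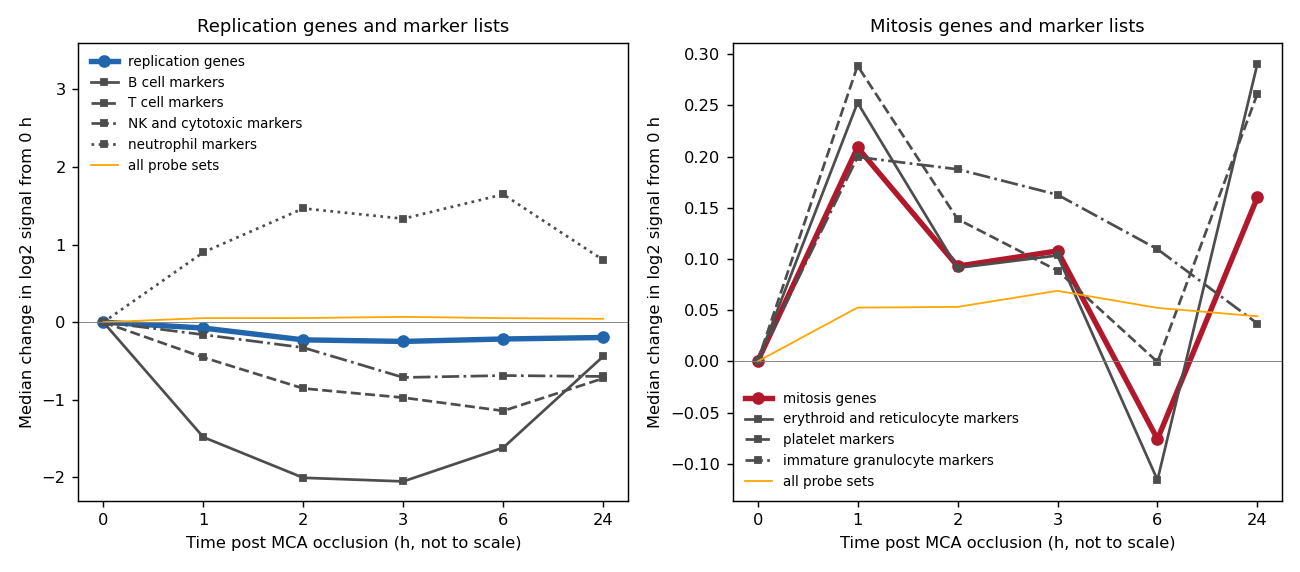
Median change in log2 signal from 0 h (y axis, a separate scale in each panel) at 6 time points (x axis, equally spaced) for the replication genes beside lymphocyte and neutrophil markers (left) and the mitosis genes beside erythroid, platelet and immature granulocyte markers (right), with the median of all probe sets in orange. On the right the mitosis genes and the erythroid markers are both highest early or at 24 h and lowest at 6 h, at -0.08 and -0.12.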

How the data were processed

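RNA from the blood cell pellets was hybridised to Affymetrix RatGene 1.0 ST arrays. The authors deposited 1 table of log2 RMA signal per probe set, with a mean and an SD for each time point over 7 or 8 arrays, annotated on rn5. The log2 values were deposited already summarised, background-corrected and normalized by RMA, and the SDs are other values on the same log2 scale. The submitters' processing notes name limma, and the program behind the RMA values is not given in the sources used here. The 47 columns of single arrays carry no rat or time in their names and were not used. The authors' fold changes, p-values and FDRs were not used.

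From the means, SDs and array numbers a linear model with 1 mean per time point was computed, with the variance moderated by squeezeVar of limma 3.58.1 in R 4.3.3 (residual df 41, prior df 5.71), two-sided, Benjamini-Hochberg adjusted over 27596 probe sets. The planned fit on single arrays was therefore replaced by this one. It was also run on simulated data, and the outcome of that run is not given here. The number of arrays limits the precision.

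In full, the text gives the 5 members of each group with the smallest F-test p. Other members past the F-test, and the member with the largest rise and fall at each time, are given by their changes. Other pathway lists give their 3 largest changes among called genes, of which 1 is not reported here, and marker lists their counts and the 2 genes with the highest signal. Members that missed the tests, and single steps, were named after their values were seen. The members and lists were chosen with earlier results of these data known. Alternatives were no moderation, an intensity trend set together with a robust prior, centred means and quantile normalized means. A filter on the lowest 25% of signals, other probe set rules and other motif letters were also used.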

Additional observations from a re-analysis of the deposited data

How the results depend on the processing

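No paired analysis was possible because the columns of single arrays carry numbers that the labels do not tie to a rat or time point, and the order of the columns was not taken as a label, and for the same reason no array could be left out in turn. The count of 25 members past the F-test stayed within 1.5 times under every alternative that gives an F-test. The medians of both groups kept their sign at every time with centred and with quantile normalized means, but some moved: for the mitosis genes from -0.08 to -0.04 (quantile) and -0.11 (centred) at 6 h and from 0.11 to 0.20 and 0.07 at 3 h, and for the replication genes from -0.08 to -0.12 (centred) at 1 h. Among the members 74 changes against 0 h were called. Of these, 64 were kept with quantile normalized means, 68 with centred means and 71 with no moderation. With an intensity trend and a robust prior, set together, 73 were kept, and with the lowest signals left out 74 were. Under these settings 0 called changes changed sign. Calls were also gained: 14 with quantile normalized means (Ccne1 at 2, 3 and 6 h, Mcm5, Ccnb2, Cenpe and Bub1 at 3 h, Rrm2 and Kif11 at 1 h, Tpx2 at 6 h, and Tyms, Cenpe, Cdc20 and Pttg1 at 24 h), 3 with centred means (Ccne1 at 3 h, Mcm2 at 24 h and Tpx2 at 6 h), 1 with the lowest signals left out (Cdc20 at 24 h) and 3 with the variance of the 2 time points compared (Rrm2 at 1 h, Ttk at 2 h and Cenpe at 24 h). Choices made after seeing the data were leaving out the 24 h samples (60 of 62 calls kept) and using the variance of the 2 time points compared (70 of 74). The calls lost with centred means were those of Mki67 at 3 h, Top2a and Cdk1 at 1 h, Aurka and Tpx2 at 24 h and Bub1 at 2 h. Those lost with quantile normalized means were Cdk2, Cdt1, Mcm2 and Cdk1 at 1 h, Gmnn, Bub1b and Mad2l1 at 2 h, Mad2l1 at 6 h and Mcm6 and Aurka at 24 h. With no moderation, Mki67 at 3 h, Plk1 at 24 h and Bub1b at 2 h were lost. Small counts moved, for reasons that were not tested. With quantile normalized means, 2 replication genes were higher at 24 h, 0 mitosis genes were lower at 2 h, 7 were higher at 3 h, 0 were lower from 1 to 2 h and 1 was lower from 6 to 24 h. With centred means, 2 mitosis genes were higher at 24 h and 0 lower from 1 to 2 h. With no moderation, 1 mitosis gene was lower at 2 h, 0 were lower at 24 h and 0 were lower from 1 to 2 h. With the lowest signals left out, 1 mitosis gene was higher and 2 were lower from 1 to 2 h. With the variance of the 2 time points compared, 2 replication genes were lower from 6 to 24 h, and of the mitosis genes 0 were lower at 24 h, 1 was higher and 4 were lower from 1 to 2 h, and 1 was lower from 3 to 6 h. With the E2F motif relaxed to TTNNCGC, 12 replication and 7 mitosis promoters held it, as did 20.9% of all promoters. The background of each array, which limits the low signals, was not assessed.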
